A study of Homo sapiens with 2 samples.

Results

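The ERBB receptors and their EGF-like ligands were followed in SW620, an established line from a lymph node metastasis of a human colorectal cancer. The 10 members were the receptors EGFR, ERBB2, ERBB3 and ERBB4, the ligands EREG, AREG, TGFA, HBEGF and BTC, and the feedback inhibitor ERRFI1. They were found as every probe set that the platform annotation gives to 1 of these symbols and to no other gene, which yielded 33 of 41092 probe sets with a single symbol. Of the 10 genes 9 had such a probe set, out of 19775 genes in all, and AREG was not analysed here. One group was SW620 in which lentivirus delivered a short hairpin RNA that targets SOX2, an HMG box transcription factor known from stem cells, and the other was SW620 given a lentiviral hairpin without a target, called mock knockdown. Both were grown in RPMI-1640 medium, and the source names read knockdown where the titles end in KO. The stated question was which genes depend on SOX2 in this type of cell line. There was 1 Affymetrix array per group, so every value is a single reading whose precision is limited by that number, and no test could be run.

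ERBB receptors are membrane tyrosine kinases that pair when a ligand binds and then recruit adaptors that feed the RAS to ERK and PI3K to AKT cascades. The ligands are made as membrane precursors and are cut loose by ADAM proteases. In the gut epithelium this pathway drives proliferation in the crypt, and antibodies against EGFR are used in colorectal cancer.

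The members did not move together. On the SOX2 knockdown array the receptors EGFR and ERBB2 and the ligands EREG and BTC were at least 2-fold higher, while the ligand HBEGF and the inhibitor ERRFI1 were at least 2-fold lower. For BTC this holds for the values as deposited, since its lower value was dim and allows only a bound of 1.82-fold. The receptor ERBB3 and the ligand TGFA were higher by less than 2-fold, and ERBB4 was dim on both arrays. A gene is represented here by its brightest probe set, and it counts as measured when the higher of its intensities reaches a floor of 68.5, the median of all values. Of the members 8 were measured, of which 4 were at least 2-fold higher and 2 at least 2-fold lower. Among all 13609 measured genes 8.44% were at least 2-fold higher and 7.29% at least 2-fold lower. The median log2 difference, SOX2 knockdown minus mock knockdown, was 1.14 over the 8 members and -0.0063 over all measured genes. BTC was measured only through the array where it is high, and the median was 0.82 with values under the floor raised to it and 0.77 over the 7 members that reached the floor on both arrays. Members were chosen by name, but with earlier results of these data known. For that reason, and because 8 genes are too few, the share cannot be read as a property of the family.

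**Figure D1:**
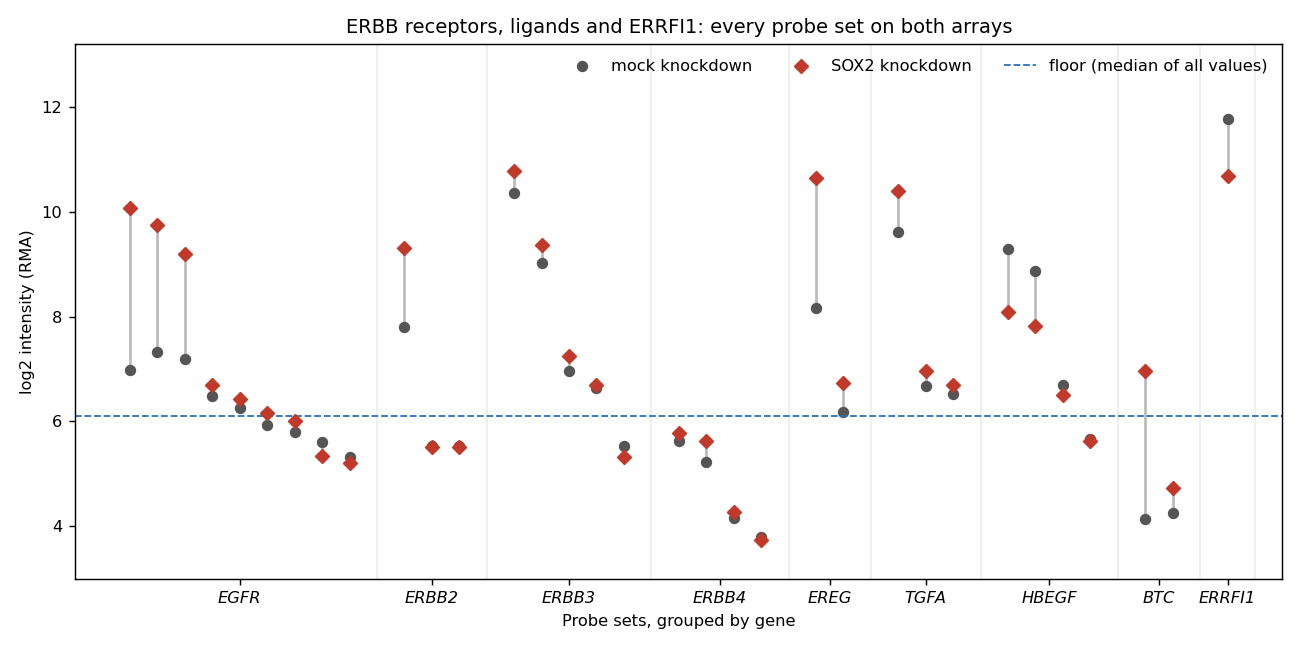
Log2 intensity (vertical axis) of each of the 33 probe sets, grouped by gene, on the mock knockdown array (grey circles) and the SOX2 knockdown array (red diamonds), with a dashed line at the floor of 6.10. The brighter probe sets of EGFR, ERBB2 and EREG are higher on the SOX2 knockdown array, those of HBEGF and ERRFI1 are lower, and the 4 of ERBB4 lie under the floor.

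The knockdown target was lower in the culture labelled with its knockdown, by an amount that differed between probe sets. The brightest one of SOX2, 228038_at, lay under the floor there and was at least 30.3-fold lower, while 213721_at read 333 and 120 and was 2.76-fold lower. The other 2 stayed under the floor in both cultures. The median intensity was 69.0 under mock knockdown and 68.1 under SOX2 knockdown. Of 10 colon epithelial markers 9 reached the floor under mock knockdown and 10 under SOX2 knockdown, and their summed intensity was 50614 and 63379, most of it from keratins and EPCAM. VIL1, a microvillus protein on that list, was lower, at 2063 and 867. A further label describes liver of mice, which the species and the other labels contradict. The hepatocyte markers ALB, APOB and FGB lay under the floor on both arrays, and the list of 7 summed to 758 and 4756, of which SERPINA1 made 313 and 4301. Of 7 leukocyte markers with a probe set, 5 lay under the floor on both arrays, PTPRC and CD3E among them. The list summed to 460 and 12049, with LYZ at 213 and 11691 and CD14 at 43.6 and 156. The 7 fibroblast markers summed to 745 and 657. The 5 neuroendocrine markers summed to 4873 and 725, with SYT1 at 3820 and 43.7 and ENO2 at 833 and 467. SYP on that list stood at 155 and 153, and CHGA and INSM1 lay under the floor on both arrays. The part of these shifts in the member differences was not tested, and in bulk RNA fewer cells of a type cannot be told apart from less RNA per cell.

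The sequences before the start sites are shown for the 5 members that differed by at least 2-fold with both values above the floor. They are the 250 bases before the annotated gene start, from RefSeq on build GRCh38.p14, written 5′ to 3′ on the strand of the gene given in brackets. For EGFR, which has a further start in the table, it is the first. Capitals mark matches on either strand to the motifs that follow. ACAATG and ACAAAG are letters found in sites of SOX and TCF proteins. TGANTCA is the AP-1 site with any base allowed at its centre. CCGGAAG is an ETS site and TATAAA the TATA box.
EGFR chr7:55018767-55019016 (+): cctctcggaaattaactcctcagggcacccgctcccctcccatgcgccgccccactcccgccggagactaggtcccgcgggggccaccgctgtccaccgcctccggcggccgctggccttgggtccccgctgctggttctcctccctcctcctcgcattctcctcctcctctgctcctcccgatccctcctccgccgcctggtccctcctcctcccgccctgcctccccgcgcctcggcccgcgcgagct
ERBB2 chr17:39687844-39688093 (+): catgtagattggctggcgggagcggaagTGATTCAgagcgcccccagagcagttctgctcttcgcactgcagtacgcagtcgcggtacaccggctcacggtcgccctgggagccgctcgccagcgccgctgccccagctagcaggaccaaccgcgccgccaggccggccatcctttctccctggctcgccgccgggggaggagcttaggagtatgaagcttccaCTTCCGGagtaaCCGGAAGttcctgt
EREG chr4:74364895-74365144 (+): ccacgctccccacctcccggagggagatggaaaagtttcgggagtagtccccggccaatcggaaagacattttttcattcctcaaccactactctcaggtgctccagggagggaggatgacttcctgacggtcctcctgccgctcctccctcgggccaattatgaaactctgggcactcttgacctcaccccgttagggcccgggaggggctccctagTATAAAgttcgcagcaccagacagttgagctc
HBEGF chr5:140346604-140346853 (-): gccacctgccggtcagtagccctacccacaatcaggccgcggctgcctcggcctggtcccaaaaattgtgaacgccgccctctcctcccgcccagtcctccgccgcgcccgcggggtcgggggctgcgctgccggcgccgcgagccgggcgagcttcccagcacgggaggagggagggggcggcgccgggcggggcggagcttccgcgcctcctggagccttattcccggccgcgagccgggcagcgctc
ERRFI1 chr1:8026310-8026559 (-): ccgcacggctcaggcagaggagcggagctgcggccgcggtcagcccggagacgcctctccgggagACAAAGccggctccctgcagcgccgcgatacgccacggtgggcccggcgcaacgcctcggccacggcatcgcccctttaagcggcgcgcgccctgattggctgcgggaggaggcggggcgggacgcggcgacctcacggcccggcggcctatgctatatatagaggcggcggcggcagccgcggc
The promoter table held 9 of the 10 members, with 11 windows. EREG has TATAAA starting 32 bases before its start. Over 35116 promoters of this length 10.7% hold TATAAA. ERBB2 has CCGGAAG starting 26 and 14 bases before its start, on opposite strands, and TGANTCA at 222 bases, there as TGATTCA. These motifs were found in 8.52% and 6.57% of promoters. For ERBB2 only the window shown was searched, and any start elsewhere in the gene was not examined. ERRFI1 has ACAAAG at 185 bases and the second window of TGFA has it at 114 bases, a string held by 13.7% of promoters. ACAATG, held by 9.29%, was in none of the 5 windows shown. The windows shown for EGFR and HBEGF hold none of the 5 motifs, which says only that these letters are not there. The second window of EGFR, not shown, holds TGANTCA at 232 and 136 bases and TATAAA at 146 and 36 bases. The GC content of the windows shown for EGFR and HBEGF was 73.6% and 76.4%, against 58.0% for EREG and a median of 58.0% over all promoters. Matches are descriptions of the letters, and the arrays measured no binding.

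EGFR, the receptor of the 5 ligands among the members, was higher on the SOX2 knockdown array in its 3 brightest probe sets. Its intensity was 159 under mock knockdown and 858 under SOX2 knockdown with 201983_s_at, a log2 difference of 2.43 or 5.38-fold. With 201984_s_at it was 145 and 586, a difference of 2.01. With 224999_at it was 127 and 1076, a difference of 3.08. The remaining 6 probe sets of EGFR differed by less than 1.5-fold. Of these, 210984_x_at went from 90.1 to 104 and 211607_x_at from 76.0 to 86.6, differences of 0.20 and 0.19, and 1565483_at reached the floor on 1 array, with 60.7 and 71.5. The other 3 stayed under the floor, and across all 9 the differences ran from -0.28 to 3.08. Probe sets of 1 gene read different stretches of its transcripts, and those ending in _s_at or _x_at can match more than 1 transcript. They share the culture, the RNA and the array, so their agreement is not replication. The SD between probe sets of a gene, over 6440 genes, was 0.49 on the log2 scale, and it was 1.30 over the 6 probe sets of EGFR that reached the floor. The difference of EGFR ranked 303 from the top among 13609 genes.

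ERBB2, the receptor with no known ligand of its own and the preferred partner of the others, was 2.84-fold higher. Its intensity was 222 under mock knockdown and 631 under SOX2 knockdown with 216836_s_at, a log2 difference of 1.51. This rests on 1 probe set, since 210930_s_at, with 46.5 and 45.7, and 234354_x_at, with 46.6 and 45.5, lay under the floor on both arrays. ERBB3, a receptor of neuregulins with a weak kinase, differed little. Its brightest probe set, 226213_at, read 1306 and 1762 under mock and SOX2 knockdown, a log2 difference of 0.43, and 202454_s_at read 518 and 662. Its 4 probe sets that reached the floor differed by 0.055 to 0.43, a narrower range than for EGFR. ERBB4, the other neuregulin receptor, had 4 probe sets, and the brightest of them stood at 49.2 and 55.1. All 4 lay under the floor on both arrays, so no difference is given for it.

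EREG, the ligand epiregulin, was 5.62-fold higher on the SOX2 knockdown array. Its intensity was 286 under mock knockdown and 1604 under SOX2 knockdown with 205767_at, a log2 difference of 2.49 that ranked 292 from the top among measured genes. Its other probe set, 1569583_at, went from 72.2 to 106, close to the floor, a difference of 0.56. Both probe sets were higher on that array, by different amounts.

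BTC, the ligand betacellulin, was seen above the floor on the SOX2 knockdown array alone. Its probe set 241412_at stood at 17.6 under mock knockdown and 125 under SOX2 knockdown, a log2 difference of 2.82 as deposited. Since the mock value lay under the floor, BTC was at least 1.82-fold higher, a bound below the limit of 2-fold. With bounds in place of deposited values 3 members, not 4, were at least 2-fold higher, against 7.85% of all measured genes, and 2 at least 2-fold lower, against 6.64%. The other probe set of BTC, 207326_at, lay under the floor on both arrays, with 19.2 and 26.7.

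TGFA, transforming growth factor alpha, was higher by less than the limit. Its brightest probe set, 205016_at, read 788 and 1346 under mock and SOX2 knockdown, a log2 difference of 0.77 or 1.71-fold, and 205015_s_at and 211258_s_at differed by 0.28 and 0.16. All 3 probe sets of TGFA were higher on the SOX2 knockdown array, though 22.0% of measured genes differed by more than TGFA in either direction.

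HBEGF, the heparin-binding ligand, went the other way from the other measured ligands. Its intensity was 623 under mock knockdown and 272 under SOX2 knockdown with 203821_at, a log2 difference of -1.19, and 467 and 225 with 38037_at, a difference of -1.06. These 2 probe sets gave like sizes, with 43.7% and 48.1% of the mock value on the SOX2 knockdown array. A further one, 244857_at, went from 103 to 90.4, a difference of -0.19, and 222076_at lay under the floor. ERRFI1, which binds the kinase domain of activated EGFR and shuts it off, was also lower. Its single probe set, 224657_at, read 3469 and 1634 under mock and SOX2 knockdown, a log2 difference of -1.09 or 2.12-fold. Both genes lay just past the limit of 2-fold, and 11.9% and 13.7% of measured genes differed by more in either direction.

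**Figure D2:**
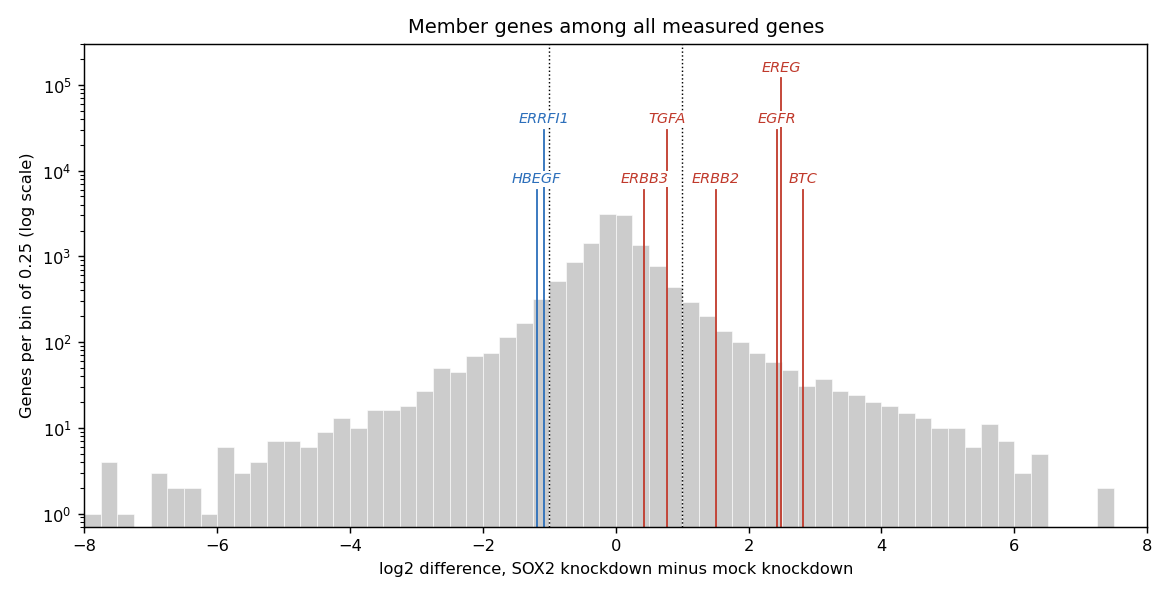
Histogram of the log2 difference (horizontal axis) of 13609 measured genes in bins of 0.25, with the number of genes on a log axis and dotted lines at the limit of 2-fold. Vertical lines mark the 8 measured members, from HBEGF at -1.19 to BTC at 2.82, the latter as deposited.

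At the level of probe sets, 21 of the 33 reached the floor on at least 1 array. Of these 6 were at least 2-fold higher and 3 at least 2-fold lower, against 8.08% and 6.87% of the 24617 probe sets with 1 symbol that reached the floor. The 6 belonged to EGFR, ERBB2, EREG and BTC, and the 3 to HBEGF and ERRFI1. EGFR alone gave 3 of the 6, which share the RNA and the array. The probe set of BTC reached the floor only on the SOX2 knockdown array, and its bound of 1.82-fold does not pass 2-fold. A further 11 of the 21 differed by less than 1.5-fold. The 12 probe sets under the floor on both arrays differed by -0.28 to 0.47, with a median of -0.030.

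Genes that work beside the members were taken from 10 lists of the pathway with 101 genes, chosen with earlier results of these data known. Of the 101 genes 82 were measured. Of the 82 measured genes 10 were at least 2-fold higher and 7 at least 2-fold lower, together 20.7%, and the median was 0.11. Among all measured genes 15.7% differed by at least 2-fold. Among the remaining EGF-like ligands NRG1, at 165 and 173, and NRG2, at 89.5 and 86.6, reached the floor and differed by 0.069 and -0.047. EGF, NRG3 and NRG4 lay under the floor with the same value on both arrays.

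Genes of ligand release and membrane partners of the receptors can be read against the 15.7% of all measured genes that passed 2-fold. Of 9 genes of ligand shedding 1, or 11.1%, passed it upward and none downward, and the list median was 0.18. It was RHBDF1, which escorts the sheddase ADAM17, at 134 and 1218, a difference of 3.18, although another probe set differed by -0.034. ADAM10, a protease that frees BTC and EGF, went from 1739 to 3250, a difference of 0.90. Of 6 membrane partners 3 passed 2-fold upward, and the list median was 0.58. CD44, a hyaluronan receptor that can hold HBEGF at the cell surface, differed by 3.86, with 9 probe sets ranging from 0.13 to 3.86. IGF1R, the IGF receptor, differed by 1.46, with another probe set at 0.041, and MUC1, a mucin that binds ERBB receptors, by -0.61. The other partner past 2-fold was MET, the receptor of hepatocyte growth factor, at 1.05, with its probe sets from 0.49 to 1.30. By the probe set of smallest difference none of RHBDF1, CD44, IGF1R and MET passed 2-fold.

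Among intracellular genes both directions occurred, and 15.7% of all measured genes passed 2-fold in either direction. Of 11 measured adaptors 1 passed 2-fold upward and 2 downward, together 27.3%, and their median was 0.15. The docking protein GAB1 went from 51.5 to 199 in its brightest probe set, which was at least 2.91-fold higher, and its 5 probe sets that reached the floor differed by 0.16 to 3.44. Its relative GAB2 differed by -1.28 and the phospholipase PLCG1 by -1.31, and the EGFR substrate EPS8 by 0.64. Of 5 measured genes of the RAS to ERK cascade none differed by 2-fold, and HRAS stood at 0.89. Of 8 in the PI3K to AKT cascade 1, or 12.5%, was at least 2-fold higher, the regulatory subunit PIK3R1 at 2.13, with PIK3R3 at 0.79. In the list of SRC and STAT genes 2 of 4 were just past 2-fold, SRC at 1.04 and STAT3 at 1.01, and another probe set of SRC differed by -0.018.

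Of 13 genes of receptor attenuation 2, or 15.4%, passed 2-fold upward and none downward, and the list median was 0.13. This share was near the 15.7% of all measured genes that passed 2-fold in either direction. SOCS5, which promotes degradation of EGFR, differed by 2.12 and the CBL partner SH3KBP1 by 1.03, against SOCS4 at -0.98 and LRIG1 at -0.66. None of 9 genes of endocytosis and sorting differed by 2-fold, with a median of 0.19. Genes of ERK output and feedback were mostly lower. Of 15 genes 11 had a negative difference, 5, or 33.3%, passed 2-fold downward and none upward, and the list median was -0.58. Among all measured genes 7.29% passed 2-fold downward. The ETS factor ETV5 went from 1441 to 406, a difference of -1.83, and SPRY2, an inhibitor of receptor signalling, from 941 to 282, a difference of -1.74. The phosphatases DUSP4 and DUSP5 and the gene PHLDA1 differed by -1.20, -1.55 and -1.01. DUSP6, a phosphatase of ERK, stood at 2030 and 2196, a difference of 0.11. HBEGF and ERRFI1 shared the direction of most genes of the ERK output list, and the other 6 measured members did not. Whether the list and these members are linked was not tested.

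**Figure D3:**
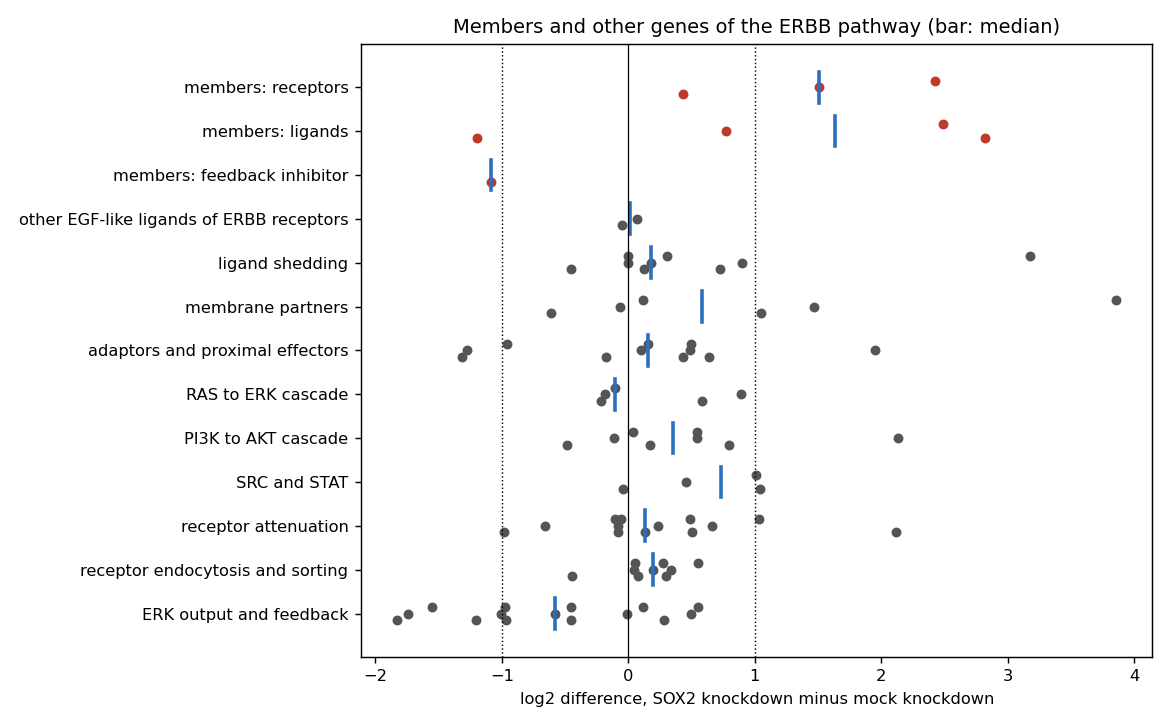
Log2 difference (horizontal axis) of each measured gene in the member groups (red) and in 10 other lists of the pathway (grey), with the median of each group as a blue bar and dotted lines at the limit of 2-fold. The ERK output list has its median at -0.58, below those of the other 9 lists, and the ligand members split between EREG, BTC and TGFA on one side and HBEGF on the other.

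Position along the chromosomes was not used to choose the members. Gene order was read from the RefSeq gene table of GRCh38.p14, and for each member the 10 nearest measured genes on either side were taken. EGFR, on chromosome 7, stood against its neighbours: of 20, 16 had a negative difference, 6 passed 2-fold downward, and their median was -0.68. The median was lower around 1.68% of 13116 genes. Among all measured genes 7.29% passed 2-fold downward. The 6 genes included UPP1, a uridine phosphorylase, at -2.54, COBL, an actin nucleator, at -2.03 and PSPH, an enzyme of serine synthesis, at -1.59, which were singled out after their values were seen. The next measured gene on one side, LANCL2, differed by -0.94 and that on the other, POM121L12, by 0.11, while all of chromosome 7 had a median of 0.062.

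ERBB2, on chromosome 17, lay among genes that were slightly higher. Of its 20 neighbours 15 lay above 0, with a median of 0.22, and 88.4% of genes had neighbours with a lower median. Its next measured neighbours PGAP3 and MIEN1 differed by 1.11 and 0.53, and PGAP3 was the 1 neighbour past 2-fold. EREG, AREG and BTC lie in that order on chromosome 4, and with AREG not analysed here EREG and BTC were next to each other among measured genes. Around EREG 4 of 20 neighbours passed 2-fold upward and 2 downward, against 8.44% and 7.29% of all measured genes. The median over the 20 was 0.16. One of the 4 was BTC, which with its mock value taken at the floor does not pass 2-fold. Beside BTC the higher ones were the chemokines CXCL1 at 2.15 and CXCL6 at 1.45 and the lysosomal protein SCARB2 at 1.30, and the lower ones the chemokine CXCL3 at -1.06 and RASSF6 at -1.94. These neighbours too were singled out after their values were seen. The neighbours of HBEGF, TGFA, ERBB3 and ERRFI1 had medians of 0.15, -0.041, -0.12 and 0.0097.

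**Figure D4:**
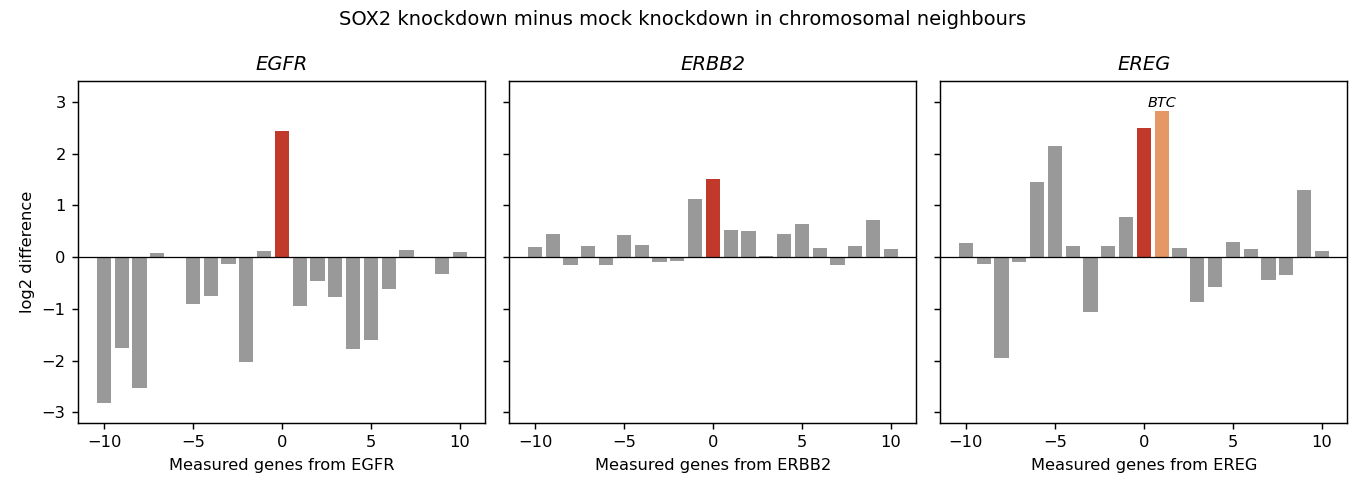
Log2 difference (vertical axis) of the 10 measured genes on either side of EGFR, ERBB2 and EREG in gene order (horizontal axis, the member at 0 in red, BTC in orange). EGFR stands at 2.43 among neighbours with a median of -0.68. EREG, at 2.49, and BTC, at 2.82 as deposited, stand side by side among measured genes. With its mock value at the floor BTC is at least 1.82-fold higher.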

How the data were processed

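Total RNA was extracted with Trizol and labelled with biotin by an Affymetrix 3′ in vitro transcription kit, per the labels' protocols. The deposited intensity values, 1 per probe set and array on a linear scale, were made by the authors with RMA, per the submitters' processing notes; for its version, its settings and the return from log2 to the linear scale: not given in the sources used here. Arrays were brought to 1 distribution by RMA, which hides a change in total RNA, and there are no detection calls. No replicates exist, so no test was run and a limit of 2-fold was used. Of 54675 probe sets 62 were controls; the platform annotation gave 1 symbol to 41092, several to 1800 and none to 11721, and 41037 were found by gene ID in the RefSeq table, which changed 0 symbols. Log2 values were taken with no pseudocount. A gene took its probe set of highest mean log2 value. Counts, medians, ranks and figures used the differences as deposited, except where the text says that bounds or raised values were used. For BTC, GAB1 and SOX2, which read under the floor on 1 array, a bound against it is given. Genes of other lists were named when among the 2 with the largest difference in each direction and at least 1.5-fold; MET, DUSP4, DUSP5, DUSP6, PHLDA1, the remaining ligands and some markers were named after their values were seen. The members and lists were chosen with earlier results of these data known. Alternatives were other normalizations, floors, probe set choices, a pseudocount of 32 and limits of 1.5-fold and 3-fold. Counting was tested on simulated data. Python 3.11.15, numpy 2.4.6, pandas 2.3.3 and matplotlib 3.10.9 were used.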

Additional observations from a re-analysis of the deposited data

How the results depend on the processing

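Across 12 alternative settings that kept the limit of 2-fold, 2 to 4 members were higher and 1 to 2 lower, against 4 and 2. With the probe set of smallest difference for each gene, 2 members were higher, 1 was lower and the median over members was 0.17; with a limit of 3-fold 3 were higher and 0 lower, and with one of 1.5-fold 5 and 2. The median over members lay between 0.17 and 1.16 in 12 settings. No member difference changed sign in the settings that gave it a value; ERBB2 had none without _s_at and _x_at probe sets, and BTC none with the floor at the 75th percentile or required on both arrays. EGFR ranged from 0.19 to 3.08 and EREG from 0.56 to 2.51, at the lowest with the probe set of smallest difference, while ERBB2 ranged from 1.38 to 1.53 and ERRFI1 from -1.11 to -1.07. With the median of probe sets EGFR stood at 1.12 and EREG at 1.52. BTC was 0.86 with values under the floor raised to it. All genes at least 2-fold different made 15.7%, against 29.8% with a limit of 1.5-fold and 7.87% with one of 3-fold. Among the other pathway genes 10 were higher and 7 lower in the main setting. With the probe set of smallest difference 3 were higher and 5 lower, while 11.7% of all genes passed 2-fold either way. With a limit of 1.5-fold 16 were higher and 13 lower, and with one of 3-fold 5 and 2. No paired analysis was possible because each group held 1 array. Signal over background limits ERBB4, BTC on the mock array and the dimmer probe sets of EGFR and ERBB2.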
